A study of Mus musculus with 10 samples.

Results

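Cells build fatty acids in the cytosol from acetyl-CoA, and 10 genes of that route were followed here in CT26 tumours of mice fed without arginine. Acly and Acss2 make the acetyl-CoA, Acaca and Fasn turn it into palmitate, Elovl5 and Elovl6 lengthen the chain, and Scd1, Scd2, Fads1 and Fads2 put double bonds into it. They were picked by symbol through their mouse Ensembl identifiers, 10 of the 21849 genes in the count table, and all 10 had enough counts to be among the 12929 genes tested. The tumours were grown subcutaneously in BALB/c mice from CT26, a single mouse colon carcinoma cell line. Mice were 5 weeks old at the start. They received either a diet that lacked arginine at equal calories or a normal diet for 1 week before the cells were implanted, and RNA was taken from the tumours on day 20. Each diet gave 5 libraries. The mice were assigned to the diets at random by weight, but no label ties a library to a mouse, so the p-values measure the spread between these libraries.

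Fatty acid synthesis is under the control of SREBP transcription factors, membrane proteins that are cut free when sterols are low and that, with the carbohydrate sensor ChREBP and the oxysterol receptor LXR, switch on most enzymes of the route. Tumour cells often make fatty acids themselves, for membranes, even where the blood supplies them. The desaturases decide how fluid the membranes are, the Scd enzymes by making monounsaturated chains and the Fads enzymes by making the polyunsaturated chains from which eicosanoids come.

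The libraries held 12013178 to 31530123 counts each. Levels are given as CPM, counts scaled to equal library totals with TMM factors, for comparing 1 gene between libraries, and as TPM, which also divides by exonic length, for comparing genes with each other. The libraries were bulk tumour, so fewer cells of a type and less RNA per cell cannot be told apart. Arginine-deficient replicate 3 stood apart, with 9.97% of its counts in mitochondrially encoded genes where the other 9 libraries had 1.67% to 4.44%. Transcripts of 12 skeletal muscle markers took 6072 and 1694 CPM of all counts in arginine-deficient replicates 3 and 4. They took 598 CPM in replicate 4 of the normal diet, and no more than 76.3 CPM in the other 7 libraries. Of the 12, Acta1 was listed at 0 in every library. Its exonic bases lie 100% inside other genes, so its 0 cannot be read as absence. Epithelial markers that a colon carcinoma line might show were also read in CPM of all counts, without TMM factors, while log2 fold changes used those factors. Of these markers, Epcam stayed at or below 0.494 CPM and Cdx2 at or below 0.666 CPM in every library. Krt20 had 83.0 to 215 CPM in arginine-deficient tumours and 186 to 264 CPM in normal-diet tumours. Cdh1, the epithelial cadherin, had 2.59 to 4.34 CPM in arginine-deficient tumours and 1.16 to 2.69 CPM in normal-diet tumours (log2 fold change 0.74, SE 0.30, edgeR adjusted p = 0.660).

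None of the 10 enzymes passed the test between the diets. The main test was edgeR's quasi-likelihood test with Benjamini-Hochberg adjustment over the 12929 genes, which called 0 of the 10 at an adjusted p under 0.05, against 0.0541% of all genes tested (7 genes, each of them higher on the deficient diet). At an unadjusted p under 0.05 by edgeR there was 1 enzyme, Fads2, on the lower side, against 6.74% of all genes tested, 3.19% lower and 3.54% higher. DESeq2 and limma voom also called 0 of the 10, with 1 and 5 at an unadjusted p under 0.05. In CPM, the mean level was lower on the deficient diet in 9 of the 10, Elovl5 being the exception, against 49.7% of all genes tested. The median log2 fold change of the 10 was -0.18, against 0.00123 over all genes. Libraries of the diets overlapped in every one of the 10, where 1.65% of all genes tested had no overlap. Over the 18 other settings tried, the lowest adjusted p of any of the 10 was 0.103, of Fads2 by limma voom.

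**Figure D1:**
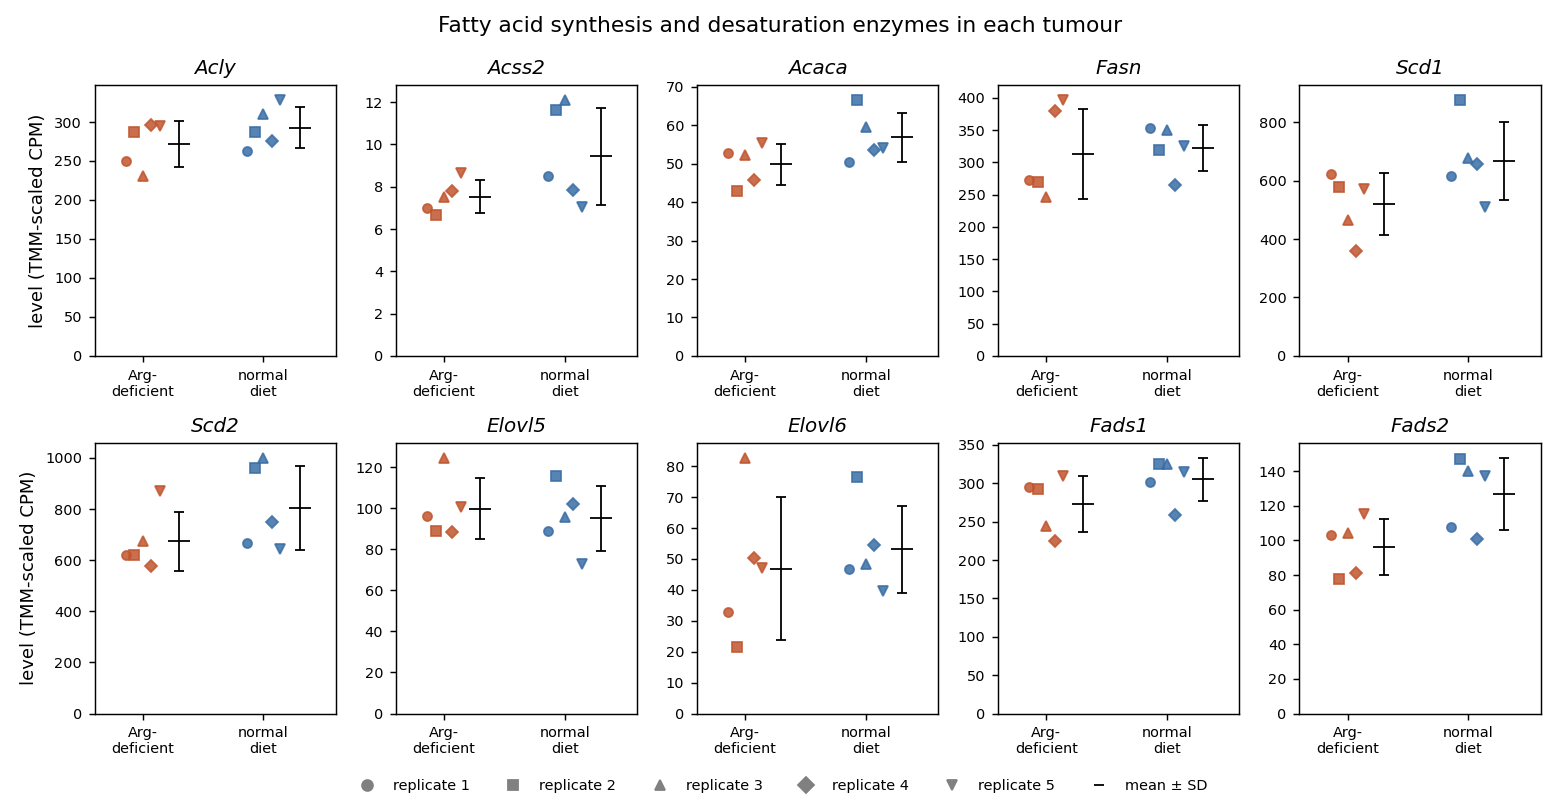
Level of each enzyme in each tumour, in TMM-scaled CPM from 0, with arginine-deficient libraries on the left and normal-diet libraries on the right of each panel; symbols mark the replicate and bars the mean ± SD of 5 libraries. The points of the diets overlap in all 10 panels, and Fads2 averages 96.3 CPM on the deficient diet against 127 CPM on the normal diet.

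The promoters of 7 of the 10 enzymes, Acly, Acss2, Acaca, Fasn, Elovl5, Elovl6 and Fads2, were matched by symbol in RefSeq's annotation of GRCm38.p6, each with 250 bases before and 50 bases after the start. Both strands were searched for the sterol response element TCACNCCAC, the E-box CACGTG, the CCAAT box and the GC box GGGCGG, motifs known to be bound by SREBP, by basic helix-loop-helix factors such as USF, by NF-Y and by SP1. The sterol response element was in 0 of the 7, against 1.24% of 32851 promoters of the same length. The E-box was in 1 of the 7, Elovl5, against 7.15% of promoters. CCAAT was in 4 of the 7, Acly, Acss2, Fasn and Elovl5, against 37.4% of promoters, and the GC box was in 3 of the 7, Acly, Acss2 and Fads2, against 35.7%. The promoter listed for Acaca lies at chr11:84195188-84195487 on the plus strand, inside the gene, which has several starts. Fasn is shown because it is the synthase of the route, at chr11:120824498-120824797 on the minus strand, and Fads2 because it had the smallest p of the 10, at chr19:10101454-10101753 on the minus strand. Each is printed 5′ to 3′ on its own strand, and capitals mark CCAAT in Fasn, read on the other strand as ATTGG, and the GC box in Fads2. The last 2 of the 3 matches in Fasn overlap each other. The letters describe these windows only.
Fasn: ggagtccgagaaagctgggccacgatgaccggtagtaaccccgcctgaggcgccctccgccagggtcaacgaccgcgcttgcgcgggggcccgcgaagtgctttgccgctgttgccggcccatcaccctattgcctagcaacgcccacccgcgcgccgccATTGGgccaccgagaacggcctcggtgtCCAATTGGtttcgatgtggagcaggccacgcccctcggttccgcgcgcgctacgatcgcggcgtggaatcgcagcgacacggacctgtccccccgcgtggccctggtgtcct
Fads2: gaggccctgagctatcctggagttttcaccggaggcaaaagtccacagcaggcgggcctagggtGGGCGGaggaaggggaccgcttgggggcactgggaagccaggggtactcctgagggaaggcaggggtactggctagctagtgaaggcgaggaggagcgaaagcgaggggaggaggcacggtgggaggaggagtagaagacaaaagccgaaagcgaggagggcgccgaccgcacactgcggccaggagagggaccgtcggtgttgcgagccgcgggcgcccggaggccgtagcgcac

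Acetyl-CoA for the route comes from a pair of enzymes. Acly (ENSMUSG00000020917.17), ATP citrate lyase, splits citrate that leaves the mitochondria and spans 100476353 to 100528000 of chromosome 11 on mm10. Acly had 250.3, 288, 231, 296 and 295 CPM in arginine-deficient replicates 1 to 5, against 262, 287, 310.4, 276 and 328 CPM in normal-diet replicates 1 to 5. The lowest library was arginine-deficient replicate 3 and the highest normal-diet replicate 5, while normal-diet replicates 1, 2 and 4 lay within the deficient range. It averaged 272 ± 29.7 CPM in arginine-deficient tumours and 293 ± 26.4 CPM in normal-diet tumours (SD, n = 5 each; log2 fold change -0.11, SE 0.11, 95% interval -0.35 to 0.13, edgeR adjusted p = 0.975). Acss2 (ENSMUSG00000027605.18), which makes acetyl-CoA from acetate, lies at 155517948 to 155585724 of chromosome 2. Levels of Acss2 were 7.01, 6.65, 7.53, 7.81 and 8.65 CPM in arginine-deficient replicates 1 to 5 and 8.53, 11.7, 12.1, 7.87 and 7.07 CPM in normal-diet replicates 1 to 5. Normal-diet replicates 2 and 3 were above every deficient library, while normal-diet replicates 1, 4 and 5 lay within the deficient range. It averaged 7.53 ± 0.772 CPM in arginine-deficient tumours and 9.44 ± 2.28 CPM in normal-diet tumours (SD, n = 5 each; log2 fold change -0.33, SE 0.19, 95% interval -0.73 to 0.07, edgeR adjusted p = 0.834). Of the exonic bases of Acss2, 52.2% lie inside another gene's body, so its reads are uncertain unless counting used the strand, which the sources used here do not say. Counts of Acss2 ran from 84 to 284 per library, the fewest of the 10.

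Palmitate is made in a pair of steps. Acaca (ENSMUSG00000020532.18; chromosome 11, 84129672 to 84401651), acetyl-CoA carboxylase, makes the malonyl-CoA that is the building block, and this step limits the rate. In arginine-deficient replicates 1 to 5, Acaca stood at 52.9, 43.0, 52.2, 45.7 and 55.3 CPM, against 50.5, 66.5, 59.5, 53.5 and 54.2 CPM in normal-diet replicates 1 to 5. Arginine-deficient replicates 2 and 4 were lowest and normal-diet replicates 2 and 3 highest, with the other 6 libraries between 50.5 and 55.3 CPM. Its mean was 49.8 ± 5.23 CPM in arginine-deficient tumours and 56.8 ± 6.29 CPM in normal-diet tumours (SD, n = 5 each; log2 fold change -0.19, SE 0.12, 95% interval -0.44 to 0.06, edgeR adjusted p = 0.866). Fasn (ENSMUSG00000025153.9; chromosome 11, 120805846 to 120824547), fatty acid synthase, carries out the whole chain of condensations. Fasn had 272, 269.9, 247, 379 and 396 CPM in arginine-deficient replicates 1 to 5, against 354, 319, 351, 265 and 326 CPM in normal-diet replicates 1 to 5. The deficient libraries split, replicates 4 and 5 above every normal-diet library and replicates 1, 2 and 3 below the 4 highest normal-diet libraries. It averaged 313 ± 69.3 CPM in arginine-deficient tumours and 323 ± 35.7 CPM in normal-diet tumours (SD, n = 5 each; log2 fold change -0.05, SE 0.15, 95% interval -0.38 to 0.29, edgeR adjusted p = 0.998). The 95% interval of its difference runs from -23.1% to 22.0% of the normal-diet level.

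The stearoyl-CoA desaturases, which put the first double bond into saturated chains, were the most abundant of the enzymes. Scd1 (ENSMUSG00000037071.3; chromosome 19, 44394455 to 44407879, minus strand) and Scd2 (ENSMUSG00000025203.6; chromosome 19, 44293674 to 44306864, plus strand) are neighbouring copies, with Scd4 between them, and the sources used here do not say how reads that match several copies were counted. Levels of Scd1 were 623, 577, 466, 360.4 and 572 CPM in arginine-deficient replicates 1 to 5 and 614, 875, 679, 657 and 511 CPM in normal-diet replicates 1 to 5. The lowest libraries were arginine-deficient replicates 4 and 3, the highest was normal-diet replicate 2, and normal-diet replicate 5 lay below 3 of the deficient libraries. It averaged 519.8 ± 106 CPM in arginine-deficient tumours and 667 ± 133 CPM in normal-diet tumours (SD, n = 5 each; log2 fold change -0.36, SE 0.18, 95% interval -0.74 to 0.02, edgeR adjusted p = 0.766). Its unadjusted p was 0.0628, and without the 3 libraries richest in muscle the log2 fold change was -0.17. Scd2 had 619, 621, 676, 579 and 872 CPM in arginine-deficient replicates 1 to 5, against 667, 961, 1000.4, 748 and 645 CPM in normal-diet replicates 1 to 5. Arginine-deficient replicate 5 stood apart from the other 4 deficient libraries and reached into the upper part of the normal-diet range, whose highest libraries were replicates 3 and 2. Its mean was 673 ± 116 CPM in arginine-deficient tumours and 804 ± 166 CPM in normal-diet tumours (SD, n = 5 each; log2 fold change -0.26, SE 0.16, 95% interval -0.61 to 0.10, edgeR adjusted p = 0.890). As a share of Scd1 plus Scd2 counts, Scd1 made up 50.1%, 48.2%, 40.8%, 38.4% and 39.6% in arginine-deficient replicates 1 to 5, against 47.9%, 47.6%, 40.4%, 46.8% and 44.2% in normal-diet replicates 1 to 5. The shares averaged 43.4% ± 5.35 in arginine-deficient tumours and 45.4% ± 3.15 in normal-diet tumours (SD, n = 5 each; two-sided exact permutation p = 0.492, which is 0.492 after Benjamini-Hochberg adjustment over 3 shares). Without the 3 libraries richest in muscle the difference had the other sign, 0.939 percentage points (two-sided exact permutation p = 0.743).

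The elongases add carbons to chains made by Fasn or taken up with food. Elovl6 (ENSMUSG00000041220.10; chromosome 3, 129532355 to 129638495) lengthens palmitate to stearate, the chain the Scd enzymes then desaturate. Levels of Elovl6 were 32.7, 21.6, 82.7, 50.3 and 47.1 CPM in arginine-deficient replicates 1 to 5 and 46.7, 76.4, 48.4, 54.4 and 39.6 CPM in normal-diet replicates 1 to 5. Arginine-deficient libraries held both the highest value, in replicate 3, and the 2 lowest, in replicates 2 and 1, and normal-diet replicate 2 stood above the other normal-diet libraries. It averaged 46.9 ± 23.1 CPM in arginine-deficient tumours and 53.1 ± 14.0 CPM in normal-diet tumours (SD, n = 5 each; log2 fold change -0.18, SE 0.30, 95% interval -0.84 to 0.48, edgeR adjusted p = 0.998). Without arginine-deficient replicate 3, the library with most mitochondrial and muscle counts, the log2 fold change was -0.48, and without arginine-deficient replicate 2 it was -0.00, neither passing. Elovl5 (ENSMUSG00000032349.13; chromosome 9, 77917364 to 77984519), which lengthens polyunsaturated chains, was the only enzyme with a higher mean CPM on the deficient diet. Its mean TPM was 100.8 on the deficient diet and 101.2 on the normal diet. In arginine-deficient replicates 1 to 5, Elovl5 stood at 96.1, 88.9, 124, 88.6 and 101 CPM, against 88.7, 116, 95.9, 102 and 72.8 CPM in normal-diet replicates 1 to 5. Arginine-deficient replicate 3 was the highest library and normal-diet replicate 5 the lowest, and the other 8 lay together between 88.6 and 116 CPM. Its mean was 99.7 ± 14.7 CPM in arginine-deficient tumours and 95.0 ± 15.9 CPM in normal-diet tumours (SD, n = 5 each; log2 fold change 0.07, SE 0.14, 95% interval -0.24 to 0.37, edgeR adjusted p = 0.998). Leaving out arginine-deficient replicate 3 gave a log2 fold change of -0.02, and leaving out replicate 5 of the normal diet gave -0.01. Elovl6 made up 25.4%, 19.6%, 39.9%, 36.2% and 31.9% of Elovl6 plus Elovl5 counts in arginine-deficient replicates 1 to 5, against 34.5%, 39.8%, 33.5%, 34.8% and 35.3% in normal-diet replicates 1 to 5. The deficient libraries spread more widely, 3 of them below every normal-diet library and 1 above. The means were 30.6% ± 8.20 in arginine-deficient tumours and 35.6% ± 2.44 in normal-diet tumours (SD, n = 5 each; two-sided exact permutation p = 0.254, adjusted p = 0.381 over 3 shares). Without the 3 libraries richest in muscle the difference was -10.1 percentage points (two-sided exact permutation p = 0.0286, the smallest that 3 against 4 libraries allow, adjusted p = 0.0857).

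Polyunsaturated chains are desaturated by Fads2, which takes the entry step from dietary linoleic and linolenic acid, and then by Fads1, after a step of elongation. Fads2 (ENSMUSG00000024665.8; chromosome 19, 10062765 to 10101746, minus strand) had the lowest log2 fold change of the 10 by edgeR with all libraries. Fads2 had 103, 77.5, 104, 81.2 and 115 CPM in arginine-deficient replicates 1 to 5, against 108, 147, 140.4, 101 and 138 CPM in normal-diet replicates 1 to 5. Normal-diet replicates 2, 3 and 5 were above every deficient library, arginine-deficient replicates 2 and 4 were below every normal-diet library, and the other 5 lay together between 101 and 115 CPM. It averaged 96.3 ± 16.2 CPM in arginine-deficient tumours and 127 ± 20.9 CPM in normal-diet tumours (SD, n = 5 each; log2 fold change -0.40, SE 0.15, 95% interval -0.72 to -0.08, edgeR adjusted p = 0.611). The difference was -24.1% of the normal-diet level (95% interval -39.3% to -5.09%), with an unadjusted p of 0.0197. The log2 fold change was between -0.47 and -0.33 whichever library was left out, with an unadjusted p of at most 0.0524. Fads1 (ENSMUSG00000010663.5; chromosome 19, 10182888 to 10196877, plus strand) lies beside it. Levels of Fads1 were 295, 293, 244, 224 and 309 CPM in arginine-deficient replicates 1 to 5 and 302, 325, 326, 258 and 315 CPM in normal-diet replicates 1 to 5. Arginine-deficient replicates 4 and 3 were lowest and the other 3 deficient libraries lay among the normal-diet ones, below normal-diet replicates 2, 3 and 5. It averaged 273 ± 36.6 CPM in arginine-deficient tumours and 305 ± 27.9 CPM in normal-diet tumours (SD, n = 5 each; log2 fold change -0.16, SE 0.12, 95% interval -0.42 to 0.10, edgeR adjusted p = 0.941). Fads2 made up 26.0%, 20.9%, 29.9%, 26.6% and 27.1% of Fads2 plus Fads1 counts in arginine-deficient replicates 1 to 5, against 26.3%, 31.2%, 30.1%, 28.1% and 30.4% in normal-diet replicates 1 to 5. No deficient library reached the highest 3 of the normal diet, and 2 were below its lowest. The means were 26.1% ± 3.26 in arginine-deficient tumours and 29.2% ± 2.00 in normal-diet tumours (SD, n = 5 each; two-sided exact permutation p = 0.0873, adjusted p = 0.262 over 3 shares). The smallest p that 252 assignments of 10 libraries allow is 0.00794.

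**Figure D2:**
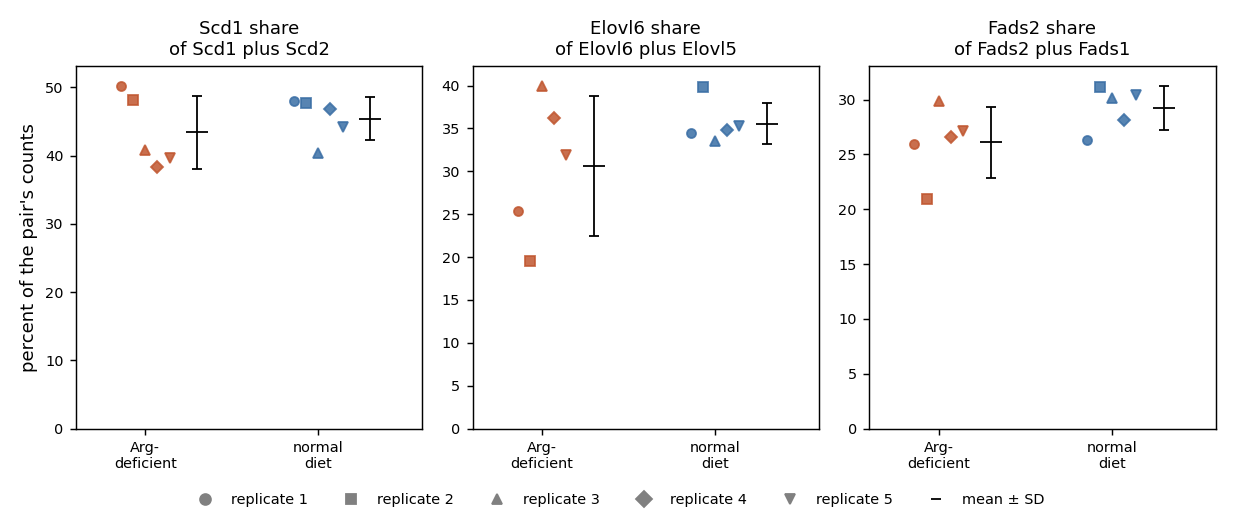
Share of Scd1 in Scd1 plus Scd2, of Elovl6 in Elovl6 plus Elovl5 and of Fads2 in Fads2 plus Fads1, as percent of the pair's counts from 0, for each arginine-deficient library (left) and normal-diet library (right); bars give the mean ± SD of 5 libraries. The Elovl6 share runs from 19.6% to 39.9% in arginine-deficient tumours and from 33.5% to 39.8% in normal-diet tumours.

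**Figure D3:**
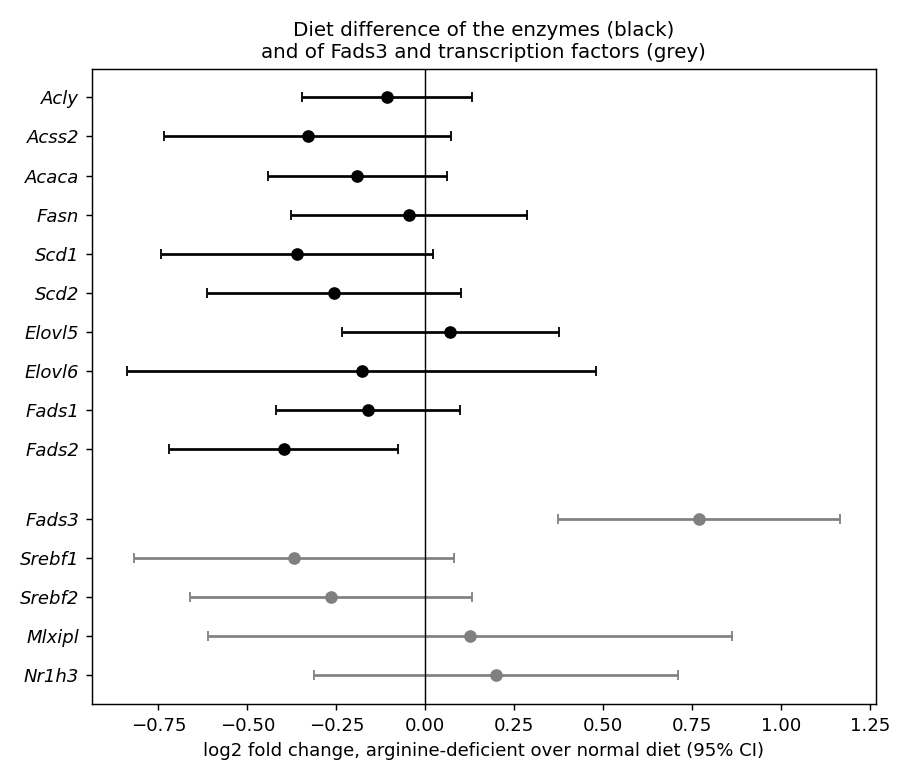
Log2 fold change, arginine-deficient over normal diet, with its 95% interval for the 10 enzymes (black) and for Fads3, Srebf1, Srebf2, Mlxipl and Nr1h3 (grey). Intervals of 9 enzymes cross 0, and that of Fads2, from -0.72 to -0.08, does not before adjustment.

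Per unit of length, the Scd desaturases led the order of the enzymes. Scd2 averaged 498 ± 121 TPM and Scd1 448 ± 122 TPM over the 10 libraries (SD), and Scd2 exceeded Scd1 in 6 of the 10. Differences in level between enzymes were not tested. Fads1 followed at 221 ± 34.4 TPM and Acly at 196 ± 26.0 TPM, with Fads1 higher in 9 of 10 libraries. Fads2 at 124 ± 29.4 TPM, Fasn at 107 ± 21.4 TPM and Elovl5 at 101 ± 14.6 TPM came next. Their order varied between libraries, since Fads2 exceeded Fasn in 7 and Fasn exceeded Elovl5 in 5 of the 10. Elovl6 at 28.3 ± 9.64 TPM, Acaca at 11.5 ± 1.83 TPM and Acss2 at 3.08 ± 0.828 TPM came below the others in every library, in that order. Together the 10 enzymes summed to 1280 to 1864.5 TPM in arginine-deficient tumours and to 1541 to 2313 TPM in normal-diet tumours, and Scd1 and Scd2 made up 47.5% to 54.5% of that sum in arginine-deficient tumours and 49.2% to 59.1% in normal-diet tumours.

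Relative to the mean of the normal-diet libraries, the median of the 10 enzymes on the log2 scale was -0.23, -0.30, -0.28, -0.27 and -0.01 in arginine-deficient replicates 1 to 5, against -0.13, 0.26, 0.09, -0.08 and -0.18 in normal-diet replicates 1 to 5. Arginine-deficient replicates 1 to 4 were below every normal-diet library on this measure and arginine-deficient replicate 5 was not. Normal-diet replicates 2 and 3 stood out on the high side. In arginine-deficient replicate 2 all 10 enzymes were below the normal-diet mean, led by Elovl6 at -1.26 and Fads2 at -0.69. Arginine-deficient replicates 1, 3 and 4 had 9, 8 and 8 below, whereas arginine-deficient replicate 5 had 5 below and 5 above. Normal-diet replicates 1 to 5 had 9, 2, 1, 7 and 6 below, so these counts overlapped between the diets. Across the 10 libraries, 39 of the 45 pairs of enzymes had a positive Pearson r of log2 CPM, with a median of 0.43. All enzymes read in a library share its diet, its scaling and its depth. The libraries also differ in how levels follow transcript GC content, and the r are given as a description. The closest pairs were Acaca with Fads2 (r = 0.92, Spearman rho = 0.87) and Acss2 with Scd2 (r = 0.89, rho = 0.82). Acly with Elovl5 had the most negative (r = -0.64, rho = -0.61).

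**Figure D4:**
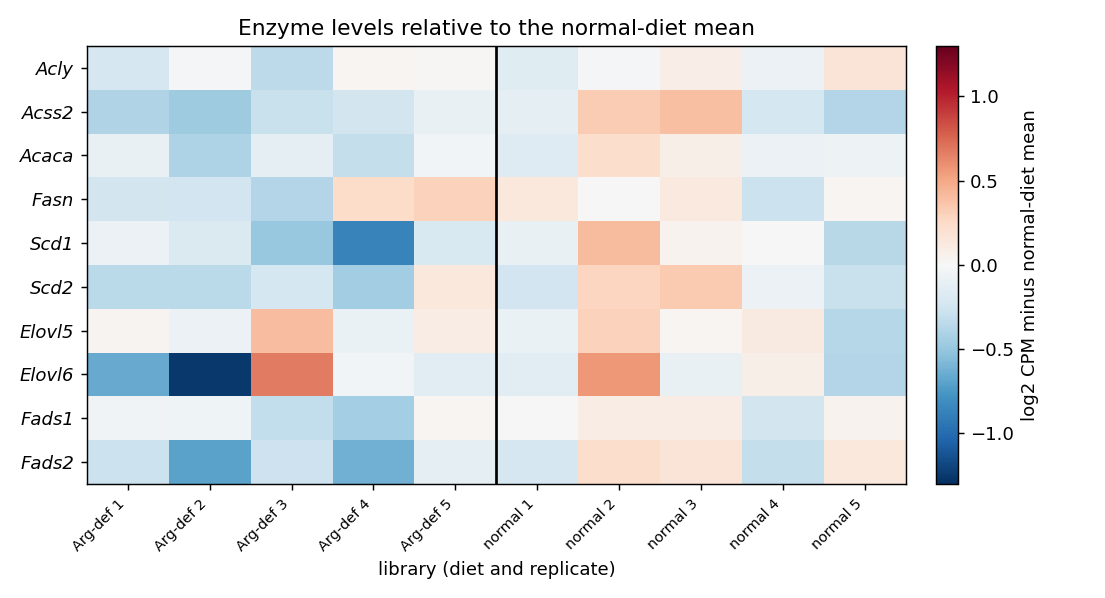
Each enzyme (row) in each library (column), as log2 CPM minus the mean of the 5 normal-diet libraries, in blue below and red above; arginine-deficient libraries are left of the black line and normal-diet libraries right of it. Arginine-deficient replicates 1 to 5 have 9, 10, 8, 8 and 5 enzymes below 0, and normal-diet replicates 1 to 5 have 9, 2, 1, 7 and 6.

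Fat cells and skin glands also make fatty acids, and their markers were read in CPM of all counts of a library, without TMM factors. The 10 adipocyte markers summed to 36.4 to 79.3 CPM in arginine-deficient tumours and to 54.4 to 93.2 CPM in normal-diet tumours (two-sided exact permutation p = 0.413, adjusted p = 0.643 over 9 marker lists). Lipe was listed at 0 in every library, with 100% of its exonic bases inside other genes, so that its 0 cannot be read as absence. Most of that sum was Fabp4, at 28.8 to 49.9 CPM in arginine-deficient tumours and 41.1 to 58.6 CPM in normal-diet tumours. Plin4 had 4.87 to 32.5 CPM and 10.8 to 17.1 CPM, and was highest in arginine-deficient replicate 3. Adipoq stayed at or below 1.24 CPM in arginine-deficient tumours and 1.83 CPM in normal-diet tumours, so the sum mainly follows Fabp4 and Plin4. Normal-diet replicate 2, the library with the highest median of the enzymes, had the highest adipocyte sum, while arginine-deficient replicate 5 had the lowest and was highest in that median among the deficient libraries. The 9 sebaceous gland markers summed to 0.694 to 3.84 CPM in arginine-deficient tumours and to 1.53 to 2.77 CPM in normal-diet tumours, with Awat1 at 0. Of the 6 mammary markers 4 were at 0 everywhere, among them Csn3, which also lies 100% inside other genes. The sum was 0 in arginine-deficient tumours and at most 0.131 CPM in normal-diet tumours. The 8 epithelial markers summed to 91.2 to 234 CPM in arginine-deficient tumours, with the lowest sum in replicate 3, and to 198 to 289 CPM in normal-diet tumours (two-sided exact permutation p = 0.0397, adjusted p = 0.357 over 9 marker lists). Most of that sum was Krt20, which had a log2 fold change of -0.42 (SE 0.21, edgeR adjusted p = 0.782), and of the 5 tested epithelial markers 2 were higher and 3 lower. Macrophage markers summed to 2654 to 3038 CPM in arginine-deficient tumours and to 2332 to 3166 CPM in normal-diet tumours. Keratinocyte, fibroblast and endothelial sums overlapped too (adjusted p = 0.464, 0.714 and 0.554, exact two-sided permutation). Their part in the levels of the enzymes was not tested.

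Of the 17 tested genes that regulate the route, 0 passed by edgeR and 0 had an unadjusted p under 0.05, while 11 were higher and 6 lower, with a median log2 fold change of 0.05. Over all genes tested, 0.0541% passed, 6.74% had an unadjusted p under 0.05 and 50.3% were higher. Srebf1, the gene of the SREBP most tied to fatty acid synthesis, averaged 146 ± 40.9 CPM in arginine-deficient tumours and 188 ± 36.8 CPM in normal-diet tumours (SD, n = 5 each; log2 fold change -0.37, SE 0.21, edgeR adjusted p = 0.834). Its levels were 135, 182, 84.1, 144 and 184 CPM in arginine-deficient replicates 1 to 5 and 199, 162, 228, 139 and 213 CPM in normal-diet replicates 1 to 5. The lowest was arginine-deficient replicate 3 and the highest normal-diet replicate 3, and the diets overlapped. Without arginine-deficient replicate 3 its log2 fold change was -0.22. Srebf2, its relative of cholesterol synthesis, averaged 278 ± 65.3 CPM in arginine-deficient tumours and 334 ± 56.7 CPM in normal-diet tumours (log2 fold change -0.27, SE 0.18, edgeR adjusted p = 0.914; -0.13 without arginine-deficient replicate 3). Mlxipl, which encodes ChREBP, was at 4.84 CPM on average over the libraries, with a log2 fold change of 0.12 (SE 0.34). Nr1h3, which encodes LXR alpha, was at 3.29 CPM, with 0.20 (SE 0.24). Of the rest, Mlx, the partner of ChREBP, had a log2 fold change of 0.21 (SE 0.10), Insig1, which holds SREBP back in the endoplasmic reticulum and is itself an SREBP target, had -0.27 (SE 0.16), and Usf2 had 0.20 (SE 0.13), although 81.8% of its exonic length overlaps other genes.

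Levels of Srebf1 and Srebf2 were set against those of each enzyme over the 10 libraries, 20 relations in all, and 0 passed after adjustment. Acly with Srebf1 came closest (Pearson r = 0.80, permutation p = 0.00538, adjusted p = 0.108; Spearman rho = 0.73, permutation p = 0.0203, adjusted p = 0.203; n = 10). Without the 2 libraries farthest from the median of Srebf1 its r was 0.51. Fads1 with Srebf1 had r = 0.71 (permutation p = 0.0189, adjusted p = 0.117; rho = 0.73, permutation p = 0.0202, adjusted p = 0.203; n = 10), and 0.59 without the 2 farthest. For each of the 2 factors r was positive with 8 of the 10 enzymes and negative with Elovl5 and Elovl6. Without the 2 libraries farthest from the median of Srebf1, its r turned to -0.02 with Acss2, -0.02 with Acaca and -0.007 with Scd1. Its signs with the other enzymes stayed the same, as did all signs of Srebf2 without the 2 libraries farthest from its own median. With 5 libraries a diet, no such relation was computed within a diet. Libraries also differed in how log2 CPM, relative to each gene's mean, followed transcript GC content. The slope per 10 percentage points of GC ran from -0.51 in arginine-deficient replicate 3 to 0.36 in normal-diet replicate 5. Transcripts of Srebf1 and Srebf2 had 59.8% and 57.8% GC, against 47.93% for Elovl5 and 48.55% for Elovl6. Acaca, with 47.92% GC, had r of 0.13 with Srebf1 and 0.08 with Srebf2 (permutation p = 0.712 and 0.816). The part of GC content in these r was not tested.

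Genes around the route were taken from lists drawn up by pathway, and 0 of them passed by edgeR. The shares over all genes tested, for this and the following lists, were 49.7% lower, 50.3% higher and 0.0541% passing. An unadjusted p under 0.05 was found in 6.74% of them, and no overlap of the diets' libraries in 1.65%. In the 9 tested genes of citrate and NADPH supply, 7 were lower and 2 higher (median log2 fold change -0.21), and Mdh1 and Idh1 had an unadjusted p under 0.05. Mdh1, cytosolic malate dehydrogenase, had 132, 119.9, 125, 134 and 117 CPM in arginine-deficient replicates 1 to 5, against 157, 155, 158, 141 and 169.8 CPM in normal-diet replicates 1 to 5. Every deficient library was below every normal-diet library. It averaged 125 ± 7.48 CPM in arginine-deficient tumours and 156 ± 10.3 CPM in normal-diet tumours (SD, n = 5 each; log2 fold change -0.31, SE 0.09, edgeR adjusted p = 0.387), with an adjusted p of 0.0308 by DESeq2 and 0.0396 by limma voom. On the same counts, DESeq2 and limma voom called many more genes over the whole table than edgeR did, as given in the last section. Idh1, the cytosolic isocitrate dehydrogenase that makes NADPH, had a log2 fold change of -0.37 (SE 0.17, adjusted p = 0.719 by edgeR; 0.0285 by limma voom). The citrate carrier Slc25a1 had -0.29 (SE 0.14) and malic enzyme Me1 0.30 (SE 0.21), which was 0.05 without arginine-deficient replicate 3. G6pdx was listed at 0 in every library, but 100% of its exonic bases lie inside other genes, so the 0 says nothing of its level.

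Among the 14 tested genes of other elongation and desaturation, 5 were higher and 9 lower (median log2 fold change -0.05), and 1 of them, Fads3, had an unadjusted p under 0.05. Fads3, the third gene of the Fads cluster, lies beside Fads2 at 10041569 to 10060110 of chromosome 19 and encodes a desaturase of sphingoid bases. Fads3 had 59.4, 64.5, 32.5, 50.9 and 68.0 CPM in arginine-deficient replicates 1 to 5, against 33.9, 26.6, 32.4, 32.4 and 36.0 CPM in normal-diet replicates 1 to 5. All deficient libraries but replicate 3 were above every normal-diet library. It averaged 55.1 ± 14.1 CPM in arginine-deficient tumours and 32.3 ± 3.48 CPM in normal-diet tumours (SD, n = 5 each; log2 fold change 0.77, SE 0.18, 95% interval 0.37 to 1.17, edgeR adjusted p = 0.256). It passed by DESeq2 (adjusted p = 0.0205) and limma voom (adjusted p = 0.00317). By edgeR it passed without arginine-deficient replicate 3 (log2 fold change 0.91, adjusted p = 0.0160), without the 3 libraries richest in muscle (0.99, adjusted p = 0.0454) and with the libraries' GC and length slopes as covariates (0.75, adjusted p = 0.0318). It did not pass in the other 13 settings, where its edgeR adjusted p was 0.259 to 0.720. Its neighbours Fads2 and Fads1, compared in the same libraries, had log2 fold changes of -0.40 and -0.16, and whether the 3 genes differ in response was not tested. Elovl1, of very long chains, had 0.21 (SE 0.10), Scd4 -0.56 (SE 0.28) and Degs1, a sphingolipid desaturase, 0.17 (SE 0.13).

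Mitochondrial fatty acid synthesis, a separate route that makes lipoic acid, had 6 of 8 tested genes lower and a median log2 fold change of -0.09, with the lipoyl transferase Lipt2 at -0.40 (SE 0.21) and the malonyl transferase Mcat at -0.23 (SE 0.19), and 0 at an unadjusted p under 0.05. Among 18 tested genes of acyl activation and glycerolipid synthesis, 11 were higher and 7 lower (median 0.03), and 2 had an unadjusted p under 0.05. Dgat2, which completes triglyceride, had a log2 fold change of 0.59 (SE 0.24, adjusted p = 0.651 by edgeR) and Acsl1, an acyl-CoA synthetase, 0.42 (SE 0.18, adjusted p = 0.694 by edgeR). Without arginine-deficient replicate 3 Acsl1 had 0.24, with an unadjusted p of 0.103. Gpam, which adds the first chain to glycerol phosphate, had 0.26 (SE 0.15; 0.14 without arginine-deficient replicate 3) and Agpat4, of the next acylation, -0.31 (SE 0.19). Uptake and oxidation had 10 higher and 11 lower of 21 tested, with a median of -0.0021 and 0 at an unadjusted p under 0.05. Lpl, lipoprotein lipase, had 0.88 (SE 0.54), with 60.7 CPM in arginine-deficient replicate 3 and at most 16.6 CPM in the other 9 libraries, and -0.05 without that library. The lipoprotein receptor gene Vldlr had 0.25 (SE 0.18). AMPK, the kinase that inactivates acetyl-CoA carboxylase, had 6 of 8 tested subunits and upstream kinases higher (median 0.05), the beta subunit gene Prkab2 at 0.32 (SE 0.14, the 1 with an unadjusted p under 0.05) and the upstream kinase gene Camkk2 at 0.21 (SE 0.11). When 1 library at a time was left out, the unadjusted p reached 0.0979 for Idh1, 0.0692 for Dgat2, 0.103 for Acsl1 and 0.0985 for Prkab2.

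Cholesterol synthesis, the other route under SREBP, had a negative log2 fold change in all 20 tested genes, with a median of -0.36, 0 passing by edgeR and 6 at an unadjusted p under 0.05. Over all genes tested, 49.7% were lower, 3.19% were lower at an unadjusted p under 0.05, and the median log2 fold change was 0.00123. Nsdhl, a sterol dehydrogenase, had -0.54 (SE 0.16, adjusted p = 0.457 by edgeR; 0.0207 by limma voom), phosphomevalonate kinase Pmvk -0.70 (SE 0.22), the acetyl-CoA acetyltransferase Acat2 -0.63 (SE 0.20) and squalene synthase Fdft1 -0.41 (SE 0.15). Whether this list differed from the 10 enzymes was not tested.

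**Figure D5:**
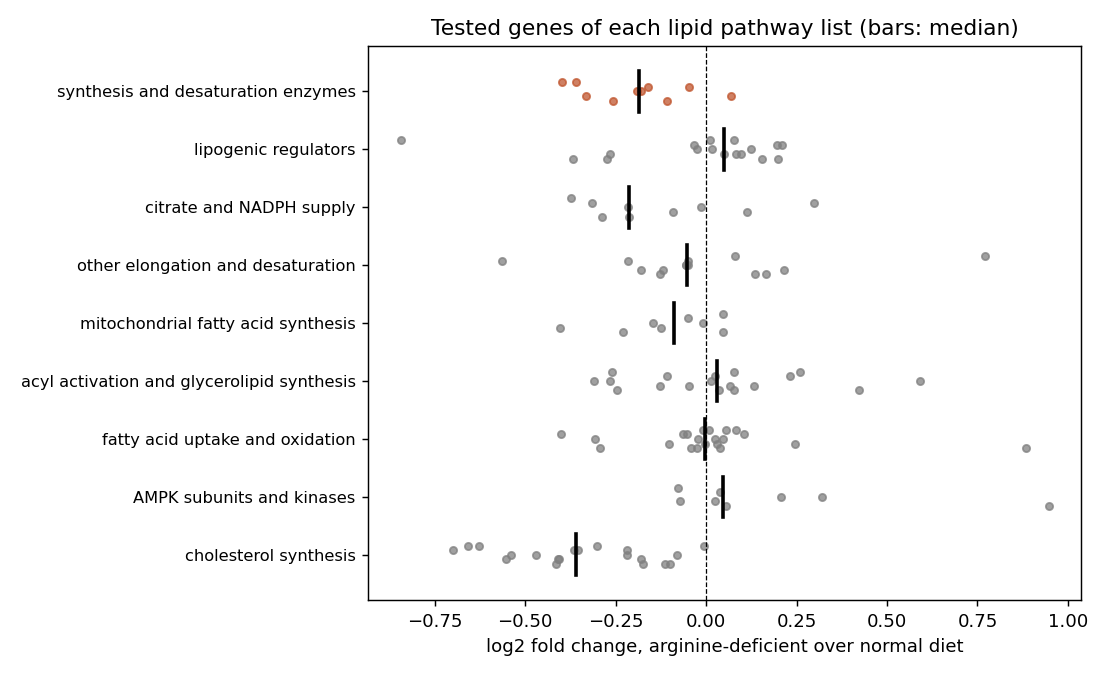
Log2 fold change, arginine-deficient over normal diet, of each tested gene (points) in the 10 enzymes (orange, top row) and 8 neighbouring lists (grey), with black bars at the medians. The medians are -0.18 for the 10 enzymes, -0.36 for cholesterol synthesis and -0.21 for citrate and NADPH supply.

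The genes most like the enzymes were taken from the 10367 tested genes outside them that averaged at least 5 CPM, by Pearson r of log2 CPM with the mean z-score of the 10 enzymes over the 10 libraries. They were Hoxc5 (r = 0.92, rho = 0.83), Nsdhl (r = 0.89, rho = 0.82), Syn3 (r = 0.88, rho = 0.83), Siglece (r = 0.86, rho = 0.77), Zc3h6 (r = 0.84, rho = 0.65) and Rab36 (r = 0.84, rho = 0.76). Without the 2 libraries farthest from the median of the enzymes' score, r stayed at 0.81 for Hoxc5 and 0.73 for Syn3 and was 0.31 for Zc3h6. Their log2 fold changes ran from -0.96 in Siglece to -0.34 in Hoxc5, and none passed by edgeR (adjusted p of 0.457 to 0.854). The enzymes' score was itself lower on average on the deficient diet, so the direction of these genes is not separate from it.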

How the data were processed

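Per the labels' protocols, total RNA of 10 tumours was extracted with TRIzol and sequenced by Illumina. The authors deposited raw read counts per gene, whole numbers with no normalization, made on mm10 with FastQC, STAR and featureCounts, tools taken from the submitters' processing notes. The sources used here give neither versions nor the strand setting. Columns were matched to libraries by the number in each sample's description, and symbols, positions and exonic lengths came from GENCODE M21 (33 of 21849 identifiers had no match). Diets were compared with edgeR 4.0.16 (R 4.3.3): TMM factors, filterByExpr at a minimum count of 10 and total of 15, diet as the only term, quasi-likelihood F test and Benjamini-Hochberg adjustment at 0.05. Log2 CPM for correlations had a prior count of 2. Correlations with Srebf1 and Srebf2 used 100000 permutations. Shares of a gene pair and marker sums were compared by exact two-sided permutation of libraries between diets, and the counting error of a library's share was at most 2.60 percentage points either way (exact 95% binomial interval, counting error only). The edgeR step was tested on simulated data.

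The 10 enzymes and all gene lists were chosen with earlier results of these data known. Named were all 10 enzymes, up to 4 tested genes of smallest p from each other pathway list, the genes Srebf1, Srebf2, Mlxipl and Nr1h3, and the 6 genes most like the enzymes. No 2 libraries agreed within sampling noise (lowest chi-square per degree of freedom 16.7), so none was another library counted again. All 10 were treated as separate, though this measure cannot tell whether 2 libraries came from 1 mouse. Alternatives were other size factors, no filter, a floor of 1 CPM in 5 or more libraries, DESeq2 1.42.0, limma 3.58.1 voom with sample weights, a replicate block, GC and length slopes of each library as covariates, setting aside the 3 libraries richest in muscle, and leaving out each library.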

Additional observations from a re-analysis of the deposited data

Results flagged for a closer look

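Of 26 groups of 5 libraries examined for a value far from the others, 1 stood out, and chance alone gives about 1 in 20. In normal-diet replicate 2, Elovl6 made up 39.8% of Elovl6 plus Elovl5 counts, against 33.5% to 35.3% in the other 4 normal-diet libraries. Its gap to the nearest was 0.725 of the range of the group, above the critical value of 0.71. The same library had the highest adipocyte marker sum, 93.2 CPM of all counts, most of it Fabp4. It also had the most positive median of the 10 enzymes, 0.26 over the normal-diet mean on the log2 scale. Whether these go together was not tested.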

How the results depend on the processing

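The count of enzymes called was 0 under all 18 alternatives, with 8 to 10 of the 10 lower on the deficient diet. The count over all genes was less steady, 7 by edgeR but 131 by DESeq2 (69 higher, 62 lower), 373 by limma voom (205 higher, 168 lower), 1 with a replicate block, 68 with GC and length slopes (35 higher, 33 lower) and 18 without the 3 libraries richest in muscle. Leaving out 1 library gave 0 to 16 genes, with 0 without normal-diet replicate 1 (787 at an unadjusted p under 0.05) or 3 (568), 2 when replicate 1, 2 or 5 of the deficient or 2 of the normal diet was dropped, 15 without normal-diet replicate 5 and 16 without arginine-deficient replicate 3. Small differences turned sign. By limma voom Fasn had a log2 fold change of 0.032, Elovl5 -0.021 and Mcat 0.00035, with GC and length slopes Mlxipl had -0.022, and without the 3 libraries richest in muscle Lpl had -0.25 and the Scd1 share a difference of 0.939 percentage points. Over the fits that left out 1 library, log2 fold changes ran from -0.15 to 0.032 for Fasn, from -0.018 to 0.15 for Elovl5, from -0.25 to 0.27 for Mlxipl and from -0.052 to 1.09 for Lpl. The cause of these shifts was not tested. Of the differences in share, that of Scd1 ran from -3.64 to -0.695 percentage points, that of Elovl6 from -7.30 to -2.21 and that of Fads2 from -4.08 to -1.83.

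Same-numbered libraries deviated from their diet's mean with r of 0.13, -0.35, -0.01, 0.13 and 0.18 over the genes tested. Only replicate 5 correlated best with its own number. These r showed no clear pairing by replicate number, but they cannot exclude a weaker pairing or one of another kind. With the replicate block the Scd1, Elovl6 and Fads2 shares had exact sign-flip p of 0.5, 0.375 and 0.0625, the last being the smallest 5 pairs can give. Shares per kilobase of exonic length gave differences of -1.99, -3.58 and -3.62 percentage points, and no share passed after adjustment under any of these settings. With 5 libraries a diet, the 95% intervals of the enzymes still span differences from -44.0% to 39.5% for Elovl6 and from -21.3% to 9.62% for Acly.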
